A study of Homo sapiens with 6 samples.

Results

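The genes described here are p53 (Trp53 in the table), its regulators Mdm2 and Mdm4, and 7 genes that p53 activates directly: Cdkn1a, Ccng1, Sesn1, Zmat3, Trp53inp1, Gdf15 and Phlda3. They were chosen by name, and 10 of 10 were found among the 22989 genes of the deposited count table. All 6 libraries are labelled as RNA of paclitaxel (PTX)-resistant breast cancer stem cells (BCSC) of MDA-MB-231, a line from a human triple-negative breast carcinoma. The BCSC are described as the cells sorted for high aldehyde dehydrogenase activity. In 3 libraries the labels give the genotype as LINC00115 knockdown (KD), made with a short hairpin RNA against this long noncoding RNA, and in the other 3 as WT. The labels number the libraries of each group as replicates 1 to 3 but do not say whether these were separate cultures, so that p-values measure the spread between these libraries, which may be technical. The comparison of KD with WT shows which genes differ between cells labelled as depleted of LINC00115 and cells labelled WT. The paper describes a control hairpin for its knockdowns, but the sample titles and column names give none for WT. Effects of LINC00115 depletion and of carrying a hairpin therefore cannot be told apart here.

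p53 is a transcription factor that is kept low in resting cells and accumulates after DNA damage and other stress. Mdm2 is the ubiquitin ligase that marks p53 for degradation and is itself a p53 target, which closes a feedback loop. Mdm4 is a relative of Mdm2 that binds p53 and blocks its activity as a transcription factor. The targets stop the cell cycle, repair DNA, limit growth signaling or start apoptosis. MDA-MB-231 is known to have lost CDKN2A.

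The libraries held between 36979221 and 38799331 counts, and 13497 genes with enough counts entered edgeR's quasi-likelihood test. No row of the table carries the name LINC00115, so the knockdown was not checked here and directions rest on the labels. The gene names are those of mouse genes although the cells are labelled human. Within the p53 pathway, Trp53rka and Trp53rkb had at least 110 counts in every library, as had Abcb1a and Abcb1b, and for each of these pairs the human genome has 1 gene. The 2 genes of a pair had unlike counts, such as 825 to 1888 for Abcb1a and 3452 to 3954 for Abcb1b. Renaming 1 human gene would not give such separate counts, so the rows are those of mouse genes, against the label. Whether the sequenced RNA itself was human or mouse was not tested, and no sequence or position is given. Of the markers of the labelled cell line, Vim, Cd44, Axl, Krt8 and Krt18 never fell under 4856 counts, while Epcam, Krt19 and Aldh1a3 had at most 7 and Aldh1a1 had between 8 and 52. Of this list of 14 genes, 9 were higher and 1 was lower in every KD library, among them Cdh1 with 1 to 3 counts in WT and 22 to 31 in KD and Esr1 with 24 to 29 and 82 to 105. Markers of other tissues moved with the groups. Summed normalized CPM (counts as a share of library totals scaled by TMM, which evens libraries out over the bulk of their genes) of 10 lung genes were 1.62 to 1.80 in WT and 73.0 to 83.3 in KD, with 10 of 10 genes higher in every KD library and 7 at 0 in every WT library, among them Scgb1a1 and Sftpc. For 10 kidney genes the sums were 16.7 to 19.5 and 45.4 to 49.0, with 9 of 10 higher, 1 lower and 5 at 0 in every WT library. The sums of 9 leukocyte genes were 34.9 to 35.7 and 99.6 to 111, with 4 of 9 higher and Cd3e at 0 in every library. For 10 endothelial genes they were 1.59 to 1.91 and 58.3 to 61.2, with 4 of 10 higher and 1 lower, and Cdh5 alone had 2136 to 2243 counts in KD and at most 14 in WT. For 8 erythroid genes they were 0 to 0.186 and 1.69 to 2.51, with 4 of 8 higher and Hba-a2 among 3 genes at 0 in every WT library. For 10 fibroblast genes they were 175 to 194 and 77.0 to 80.2, with 1 of 10 higher, 3 lower and Postn at 0 in every WT library. The part of these RNAs in the results on p53 genes was not tested.

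Cdkn1a, which encodes the cyclin-dependent kinase inhibitor p21, was 3.91-fold lower in KD than in WT, whereas p53 itself, Mdm2, Mdm4, Ccng1 and Phlda3 lay within 13.1% of their WT levels. Between these, Trp53inp1 and Sesn1 fell by 40.0% and 27.6%, and Zmat3 rose by 61.9%. The word called is used for genes with both an adjusted p under 0.05 and a change of more than 2-fold. By this rule 1 of the 9 genes tested was called, Cdkn1a, which is 11.1% beside 20.2% of all genes tested in either direction and 9.98% in the lower direction. None of the 9 was called higher (0, beside 10.2% of all genes) by edgeR or by DESeq2, and 4 were higher at an unadjusted p under 0.05 in edgeR's test. At an adjusted p under 0.05 alone, 3 genes were lower and 4 higher, together 77.8% beside 73.4% of all genes tested (36.7% lower and 36.7% higher), so this count does not set the group apart. The groups did not overlap for 6 of the 9 genes (66.7%), 3 of them lower and 3 higher in KD, beside 75.6% of all genes (37.8% lower and 37.8% higher). The median log2 fold change of the 9 genes was 0.08, and their median size was 0.18, beside −0.01 and 0.45 over all genes tested. Gdf15 was too low to be tested. Fewer cells with a transcript and less of it per cell cannot be told apart in these bulk libraries.

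**Figure D1:**
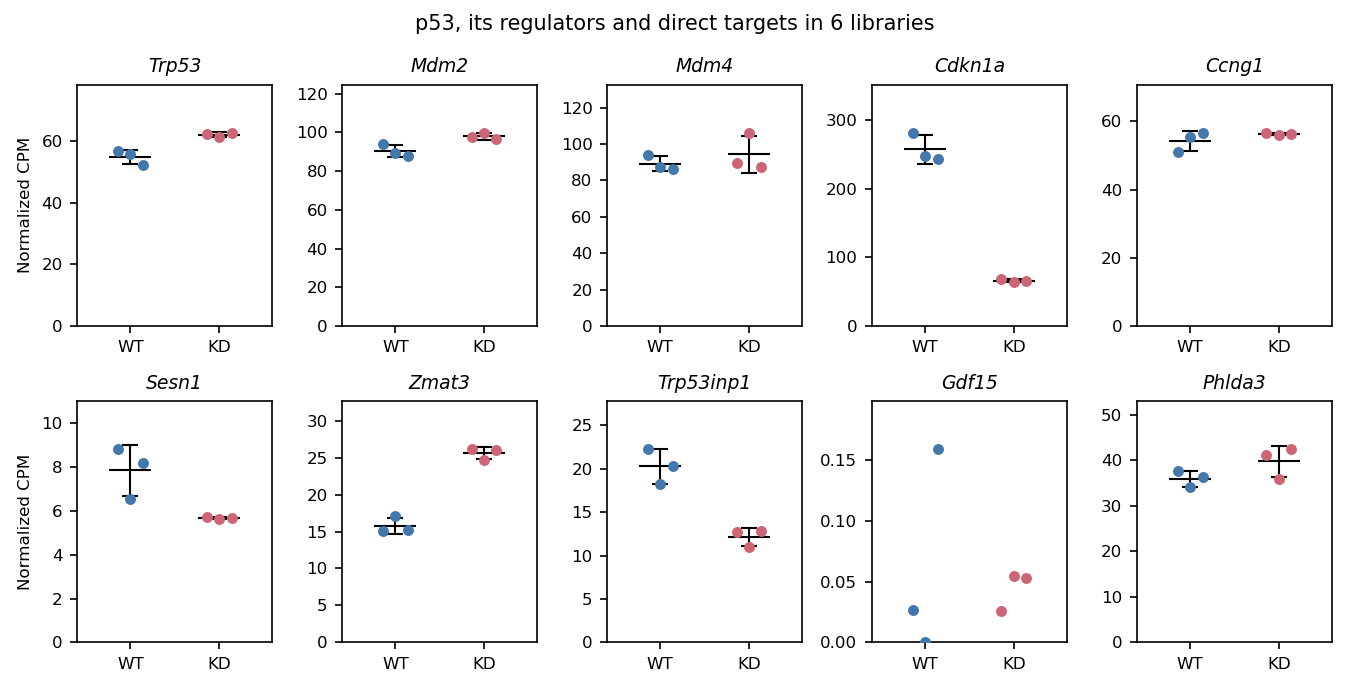
Normalized CPM of each of the 10 genes in the 3 WT (blue) and 3 KD (red) libraries, each panel with its own linear axis from 0. Points are libraries 1 to 3 from left to right, the long bar is the group mean and the error bar the SD, left out for Gdf15. Cdkn1a sits at 244 to 281 in WT and 64.0 to 68.7 in KD, while the points of Mdm4, Ccng1, Gdf15 and Phlda3 overlap between the groups.

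p53 mRNA was slightly higher in KD. Normalized CPM of Trp53 were 56.7, 55.8 and 52.2 in WT libraries 1 to 3 and 62.3, 61.3 and 62.8 in KD libraries 1 to 3. Every KD library lay above every WT library. The means were 54.9 ± 2.40 and 62.1 ± 0.755 (SD, n = 3 each), and the log2 fold change was 0.18 with a standard error of 0.05 (edgeR, adjusted p = 0.00292), or 13.1%. Changes of larger size were found for 78.4% of all genes tested. The other members of the p53 family were low: Trp73 had at most 2 counts in any library, and Trp63 had 6, 15 and 11 counts in WT and 34, 36 and 39 in KD, a log2 fold change of 1.76 with a standard error of 0.50 (adjusted p = 0.0022).

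The ligase Mdm2 had 94.1, 89.1 and 88.1 normalized CPM in WT and 97.8, 99.9 and 96.4 in KD. The groups did not overlap, but the nearest libraries, WT 1 and KD 3, differed by less than the range within WT. The log2 fold change was 0.12 with a standard error of 0.04 (edgeR, adjusted p = 0.0193), a difference of 8.38%. It no longer passed without WT replicate 2 (adjusted p = 0.0582) or without WT replicate 3 (0.0748), nor with upper quartile scaling (0.130) or library size alone (0.0510).

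Mdm4, the other inhibitor of p53, had 94.1, 87.1 and 86.3 normalized CPM in WT and 89.4, 106 and 87.3 in KD. KD library 2 stood above the other 5 libraries, which overlapped, and the coefficient of variation in KD was 10.9%. The log2 fold change was 0.08 with a 95% interval from −0.03 to 0.19 (edgeR, adjusted p = 0.194). Without KD replicate 2 the value was −0.0043 (adjusted p = 0.946), and without KD replicate 3 it was 0.14 and passed (adjusted p = 0.0454).

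Upstream of Mdm2, Cdkn2a encodes the Arf protein that holds Mdm2 away from p53. It had 0 or 1 counts in every library and was not tested. The list of p53 regulators held 33 genes other than Mdm2 and Mdm4, of which 31 were tested. Of these, 2 were called lower (6.45%, beside 9.98% of all genes) and 4 higher (12.9%, beside 10.2%), and the median log2 fold change was 0.01. The called genes were spread over several roles. Chek2, the checkpoint kinase that phosphorylates p53 after DNA breaks, fell with a log2 fold change of −1.44, and Ppp1r13l, which encodes the p53 inhibitor iASPP, fell with −1.31. Ppp1r13b, the gene of the p53-binding protein ASPP1, rose 2.83-fold, Hipk2, a kinase of p53, 2.74-fold, and Trp53rkb, named for a kinase that acts on p53, 2.29-fold (log2 standard errors between 0.05 and 0.17, adjusted p of 7.31e-08 or less for each of these 5 genes, by edgeR). The remaining called gene was Trp63. The apical damage kinase Atm did not pass (log2 fold change 0.07, adjusted p = 0.21), nor did the phosphatase gene Ppm1d, which shuts the response off (0.20, adjusted p = 0.084).

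**Figure D2:**
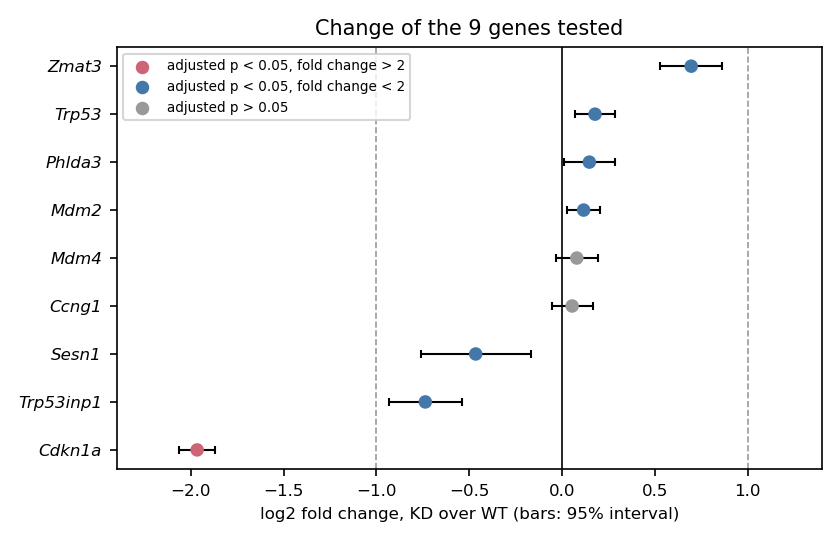
Log2 fold change of KD over WT for the 9 genes tested, with 95% intervals from edgeR's fit of 3 libraries per group, and dashed lines at a fold change of 2. Cdkn1a lies at −1.97, past the dashed line, while the intervals of Mdm4 and Ccng1 cross 0 and that of Phlda3 starts at 0.01.

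Cdkn1a had the largest change of the 9 genes. Its counts were 10600, 9329 and 9206 in WT and 2657, 2350 and 2464 in KD, which are 281, 247 and 244 and 68.7, 64.0 and 64.9 normalized CPM. The lowest WT library was over 3 times as high as the highest KD library. The means were 257 ± 20.9 and 65.9 ± 2.49 (SD, n = 3 each), and the log2 fold change was −1.97 with a standard error of 0.05 (edgeR, adjusted p = 3.21e-28), or 3.91-fold lower. The 95% interval, from −2.06 to −1.87, did not reach that of any other gene of the 9, the nearest being Trp53inp1 from −0.93 to −0.54. A larger change in either direction was found for 7.45% of all genes tested, and 3.05% lay further down.

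Of 13 other genes listed as p53 targets of cell cycle arrest, 11 were tested. Of these, 3 were called lower (27.3%, beside 9.98% of all genes) and 1 higher (9.09%, beside 10.2%). Prdm1, a transcriptional repressor, fell furthest with a log2 fold change of −5.19, followed by Ccng2, a cyclin of quiescent cells and relative of Ccng1, with −3.90 and Btg2, an antiproliferative gene, with −1.47. Plk3, the stress-responsive polo-like kinase, rose with 1.66 (standard errors of these 4 genes between 0.05 and 0.19, adjusted p of 4.69e-12 or less, by edgeR). Ccng2 dropped from 9013, 8456 and 8173 counts in WT to 621, 522 and 572 in KD. Plk3 went from 1794, 1704 and 1631 counts to 5480, 5045 and 5727. Gadd45a, a damage-induced growth arrest gene, changed little (log2 fold change −0.25, adjusted p = 0.0012).

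Ccng1, the cyclin G1 gene and among the most regular targets of p53, had 50.9, 55.5 and 56.5 normalized CPM in WT and 56.7, 56.1 and 56.4 in KD. The groups overlapped. Its log2 fold change was 0.05 with a 95% interval from −0.06 to 0.16 (edgeR, adjusted p = 0.371).

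Phlda3, which encodes a small protein that blocks Akt at the membrane, had 37.6, 34.1 and 36.3 normalized CPM in WT and 41.1, 35.9 and 42.4 in KD. KD library 2 lay within the WT range, and the other KD libraries lay above it. The log2 fold change was 0.15 with a standard error of 0.07 (edgeR, adjusted p = 0.0479). The adjusted p was over 0.05 in 8 of 13 alternatives, among them those without WT replicate 2 (adjusted p = 0.182), WT replicate 3 (0.0687), KD replicate 1 (0.134) or KD replicate 3 (0.217).

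Zmat3, an RNA-binding zinc finger protein that p53 uses to control splicing, rose in KD. It had 15.1, 17.0 and 15.3 normalized CPM in WT and 26.1, 24.6 and 26.0 in KD, and the groups were far apart. The means were 15.8 ± 1.08 and 25.6 ± 0.826 (SD, n = 3 each), and the log2 fold change was 0.70 with a standard error of 0.08 (edgeR, adjusted p = 2.53e-09), or 1.62-fold. It was the largest increase of the 9 genes and stayed under a fold change of 2.

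Trp53inp1, which encodes a p53 cofactor active in apoptosis and autophagy, fell. It had 22.2, 18.3 and 20.3 normalized CPM in WT and 12.7, 11.0 and 12.8 in KD, with no overlap. The log2 fold change was −0.74 with a standard error of 0.10 (edgeR, adjusted p = 2.24e-08), or 1.67-fold lower. Its paralog Trp53inp2 did not pass (log2 fold change −0.05, adjusted p = 0.41).

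Sesn1, a sestrin that restrains mTORC1 and protects from oxidants, fell less. It had 8.82, 6.55 and 8.18 normalized CPM in WT and 5.74, 5.64 and 5.66 in KD. The KD libraries were nearly equal, while the WT libraries spread by 14.9% (coefficient of variation), and WT 2 was nearest to KD. The log2 fold change was −0.47 with a standard error of 0.15 (edgeR, adjusted p = 0.00488), or 1.38-fold lower. Of the other sestrins, Sesn3 changed by −0.52 (adjusted p = 4.8e-08) and Sesn2 by −0.07, which did not pass (adjusted p = 0.43).

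Gdf15, a secreted stress cytokine of the TGF-beta family, was close to absent. It had 1, 0 and 6 counts in WT and 1, 2 and 2 in KD. A count of 0 allows up to 3 counts at this depth (counting error only), and 5 of the 6 libraries were at or under that limit, so no fold is given. Other direct targets with few counts were Pmaip1, a proapoptotic BH3-only gene, with 1 to 5 counts, and Perp, a p53-induced desmosome gene, with 0 to 17 counts, both named after their values were seen.

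**Figure D3:**
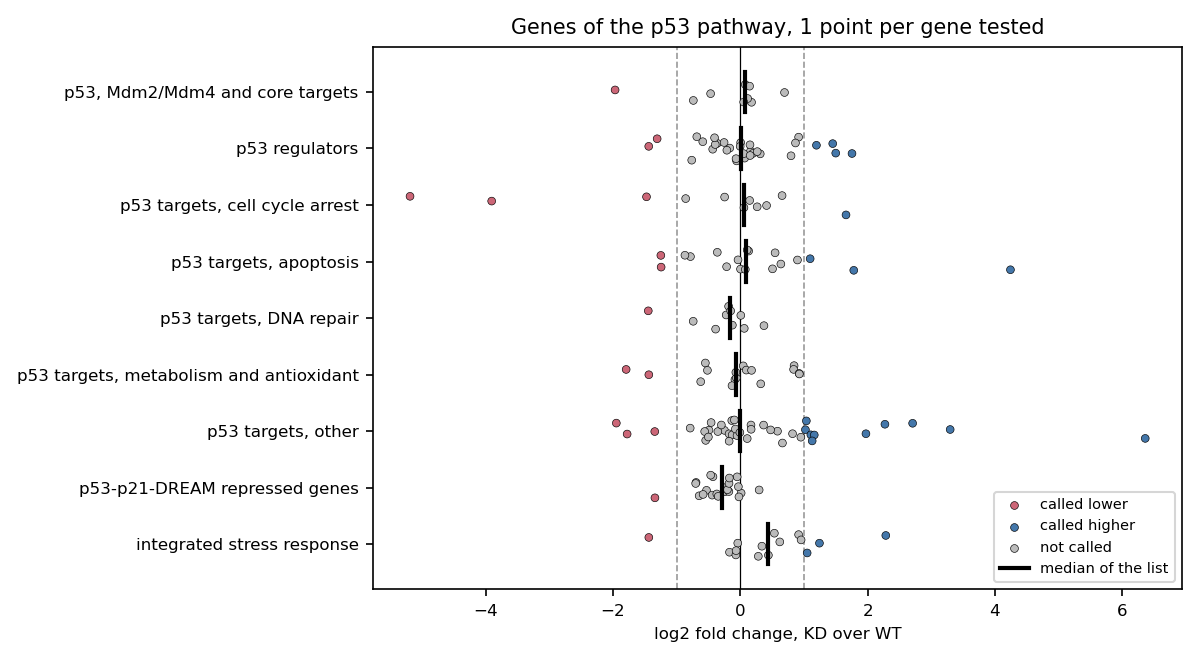
Log2 fold change of KD over WT for each tested gene of the p53 genes described above and of the other lists of the pathway, with the list median as a black bar and dashed lines at a fold change of 2. Medians lie between −0.29 (genes repressed through p21 and DREAM) and 0.44 (integrated stress response), and the lists of p53 targets hold called genes on both sides or on the lower side.

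The wider set of p53 targets moved both ways. Over its 5 functional lists, 95 of 103 further targets were tested, of which 11 were called lower (11.6%, beside 9.98% of all genes) and 14 higher (14.7%, beside 10.2%). At an adjusted p under 0.05 alone, 35 were lower and 34 higher, and the median log2 fold change was −0.01, as over all genes.

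Among 18 tested genes listed as targets of apoptosis, 2 were called lower (11.1%, beside 9.98% of all genes) and 3 higher (16.7%, beside 10.2%). Aen, an apoptosis-enhancing nuclease, rose with a log2 fold change of 1.78 and Dram1, a lysosomal regulator of autophagy, with 1.10. Ikbip fell with −1.25 and Bcl2l11, which encodes the BH3-only protein Bim, with −1.24 (adjusted p of 5.66e-12 or less for these 4 genes, by edgeR). Without WT replicate 1 the change of Dram1 was 0.99, under a fold change of 2. The remaining called gene, Trp53i11, had 5, 5 and 1 counts in WT and 102, 69 and 45 in KD. Of the other effectors, chosen after their values were seen, the log2 fold change was −0.21 for Bax, −0.36 for Bbc3 (Puma), −0.78 for Apaf1, −0.87 for Pidd1, 0.90 for Bid and 0.51 for Tnfrsf10b, which passed the adjusted p, and 0.08 for the death receptor gene Fas, which did not (adjusted p = 0.50).

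Among 10 tested DNA repair targets, 1 was called, in the lower direction (10%, beside 9.98% of all genes), and 5 passed the adjusted p alone (50%, beside 73.4%), 4 lower and 1 higher. The nucleotide excision repair genes Ddb2 and Xpc had log2 fold changes of −0.22 and −0.12, of which the latter did not pass (adjusted p = 0.21), and Rrm2b, the p53-induced ribonucleotide reductase subunit, rose with 0.37. Among 17 tested targets of metabolism and antioxidant defense, 2 were called (11.8%, beside 20.2% of all genes in either direction), both lower: Lpin1, a phosphatidate phosphatase, with −1.79 and Ddit4, an inhibitor of mTORC1 that hypoxia also induces, with −1.44 (adjusted p of 2.68e-19 or less). Tigar, which lowers glycolytic flux, rose with 0.93, short of a fold change of 2.

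Of the 39 other targets tested, 3 were called lower (7.69%, beside 9.98% of all genes) and 10 higher (25.6%, beside 10.2%). Tgfa, an EGF receptor ligand, fell with a log2 fold change of −1.95, Ier3, an immediate early gene, with −1.78, and Bhlhe40, a repressor that hypoxia also induces, with −1.34. The largest increases among well-counted genes were those of Pltp, the phospholipid transfer protein, with 3.30, Tap1, the peptide transporter of antigen presentation, with 2.71, and Crip2, a LIM protein, with 2.27 (adjusted p of 9.74e-21 or less for these 6 genes, by edgeR). Eda2r, a death receptor gene of the same list, had 0, 0 and 1 counts in WT and 55, 39 and 19 in KD.

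p21 also lowers cell cycle genes as a group, by way of the DREAM repressor complex. Of 22 such genes tested, 1 was called (4.55%, beside 20.2% of all genes in either direction), the spindle checkpoint kinase gene Bub1, which fell from 11881, 11695 and 11737 counts in WT to 4733, 4573 and 4659 in KD, a log2 fold change of −1.34 with a standard error of 0.04 (edgeR, adjusted p = 6.84e-27). At an adjusted p under 0.05 alone, 17 were lower (77.3%, beside 36.7% of all genes) and 1 higher, Ccnb1 with 0.30, and the median log2 fold change was −0.29. Most of these genes and Cdkn1a were lower in the same libraries, and how their changes relate was not tested.

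Gdf15, Sesn2 and Ddit4 also answer to Atf4, the transcription factor of the integrated stress response. Of 15 tested genes of that response, 1 was called lower, Ddit4 (6.67%, beside 9.98% of all genes), and 3 higher (20%, beside 10.2%), with a median log2 fold change of 0.44. Slc7a11, the cystine transporter, rose with 2.29, Atf3, a stress-induced transcription factor, with 1.24, and Asns, asparagine synthetase, with 1.05 (adjusted p of 4.32e-19 or less for these 3 genes, by edgeR). Atf4 itself rose with 0.92, and 10 of the 15 were higher at an adjusted p under 0.05, beside 36.7% of all genes.

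**Figure D4:**
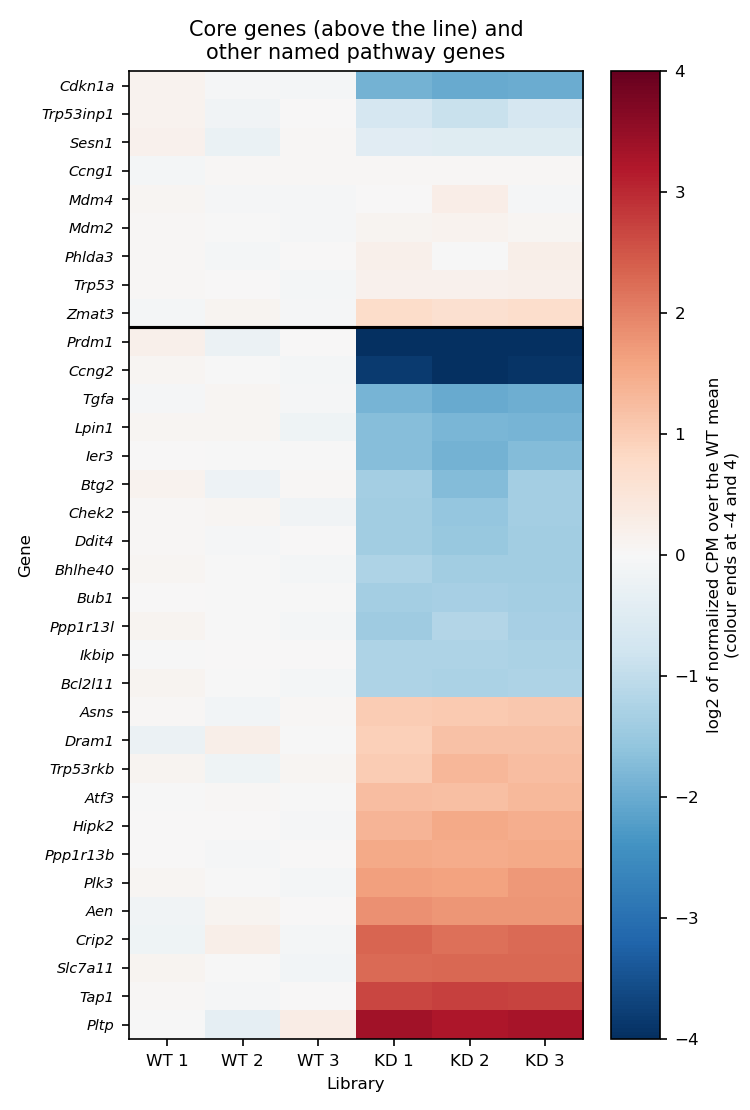
Log2 of normalized CPM over the WT mean in each of the 6 libraries (columns), for the 9 tested genes (above the line) and for 25 other pathway genes chosen by a fixed rule (below it). The 3 KD libraries share the colour of each called gene, and of the genes above the line Cdkn1a is the darkest.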

How the data were processed

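The 3 KD and 3 WT libraries were grouped by the titles in the labels, and the table's columns by their names. Per the paper, the authors trimmed adapters and mapped reads with HISAT2 to hg19. The submitters' processing notes instead list hg38, with HISAT2, featureCounts and DESeq2. The authors deposited raw counts per gene without normalization. Which annotation served, and whether strand was used, is not given in the sources used here, so reads of overlapping or near-identical genes may have been split.

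The tests used edgeR 4.0.16 under R 4.3.3 (filterByExpr with a minimum count of 10 and a minimum total count of 15, TMM scaling, group only, quasi-likelihood test, Benjamini-Hochberg adjustment over 13497 genes). The filter removed Gdf15. Genes were called at an adjusted p under 0.05 and a fold change over 2, thresholds chosen to match the study's. The standard error is the size of the log2 fold change over the root of F. Library totals lay within 36979221 to 38799331 counts, and a count of 0 allows 3 counts. Precision rests on these totals and on the spread between replicates (biological coefficient of variation 5.21%).

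The p53 genes, the other gene lists and the rule for names were chosen with earlier results of these data known. Whether each listed target depends on p53 in these cells was not tested, and some may answer mainly to other factors. The rule named the 10 p53 genes and, per list and direction, up to 3 called genes of largest change reaching 100 counts in each library of the group where they were higher, as well as Cdkn2a, Plk3, Trp63 and Trp73. Other genes were named after their values were seen. Levels were not compared between genes, since the table gives no gene length. On simulated counts of this comparison (random seed 69, 13478 genes), 194 of 200 changed genes were called (97.0%), with 0 unchanged genes called. The simulation gave every gene the same biological spread between replicates, and all its changes lay well past the fold-change threshold. It therefore does not measure errors for genes near that threshold or with a larger spread. Alternatives were 3 other scalings, 2 other filters, each replicate left out, DESeq2 1.42.0, a replicate block and no fold-change threshold. A gene counted in the lists is not reported here by name.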

Additional observations from a re-analysis of the deposited data

How the results depend on the processing

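Without the fold-change threshold, the counts of genes called rose to 3 lower and 4 higher for the p53 genes (1 and 0 with it), 12 and 12 for the regulators (2 and 4), 35 and 34 for the other targets (11 and 14), 17 and 1 for the genes repressed through p21 and DREAM (1 and 0), and 2 and 10 for the integrated stress response (1 and 3). In every other alternative these counts stayed within 1.5 times. At an adjusted p under 0.05 alone, 3 p53 genes were lower in every alternative. The 4 higher ones became 2 with upper quartile scaling and 2 with library size alone, which lacked Mdm2 and Phlda3, and with replicates left out they ranged from 2 to 4. The changes of Cdkn1a, Trp53inp1, Sesn1, Zmat3 and Trp53 kept their direction and side of the adjusted p threshold in 13 of 13 alternatives, between −2.01 and −1.90 for Cdkn1a. Mdm4 was −0.0043 without KD replicate 2, the only change of direction among the 9 genes, and 0.14 without KD replicate 3. Of 27 other pathway genes followed through the alternatives, which was decided after seeing the data, 26 kept their call in each alternative that tested them. The exception was Dram1 without WT replicate 1. Same-numbered WT and KD libraries did not deviate together (correlations of 0.0421, −0.0147 and −0.0214 across genes), so the numbers were not taken as pairs. With the replicate number as a block, 1 p53 gene was called lower and 0 higher, as without the block. No fold is given for Gdf15, whose counts are at or near the limit of 3. Depth limits what can be said of Gdf15, Cdkn2a, Trp73 and Pmaip1. The causes of these dependences were not tested.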
